A study of Mus musculus with 13 samples.

Results

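The 9 genes described here encode the peptidases and the amino acid and peptide carriers with which small intestinal enterocytes finish protein digestion. Their names (Anpep, Enpep, Dpp4, Mme, Slc15a1, Slc6a19, Slc7a9, Slc3a1 and Slc7a8) were given at the outset. They were chosen with earlier results of these data known, so the choice was not independent of the data. Each gene was represented by the array probe set annotated to that symbol alone. All 9 had 1 such probe set and passed the filter on dim genes, out of 16721 genes tested and 19938 genes with a symbol of their own. Their level was measured in mouse enterocytes of 129/SVJ background on 12 Affymetrix arrays, 2 for each of 6 genotypes. The genotypes were CKIα KO, homozygous for a gut-specific knockout of casein kinase I alpha, and CKIα Het, heterozygous for it; CKIα KO/p21 KO and CKIα Het/p21 KO, which also lacked the cell cycle inhibitor p21; and CKIα KO/p53 KO and CKIα Het/p53 KO, which also lacked the tumour suppressor p53. Every control thus carried a heterozygous CKIα knockout, and no wild type gut was measured. The labels name neither the Cre line nor the age of the mice. They call the 2 arrays of a group biological replicates.

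Proteins that reach the gut lumen are cut by pancreatic enzymes into short peptides, and peptidases anchored in the microvillus membrane, the brush border, trim these further. Di- and tripeptides then enter the enterocyte through a proton-coupled carrier, and free amino acids enter through sodium-coupled carriers and exchangers. Other exchangers in the basolateral membrane pass them on to the blood. CKIα phosphorylates β-catenin and so primes it for destruction, which holds Wnt signals in check. Those signals keep crypt cells dividing, while the genes described here are known as markers of the differentiated cells of the villus.

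The sequence before the transcription start is shown for both subunits of one cystine carrier and for the genes with the lowest adjusted p and the most negative difference below. The letters come from RefSeq on GRCm38.p6, on the strand of the gene, and end at the base before the start. Capitals mark CAAAGNNCA on either strand, a pattern bound by the enterocyte factors HNF4A and HNF4G. For Slc7a9, which has 2 annotated starts, only the match with the bases on either side is shown.
Slc3a1, chr17:85028097-85028346, + strand: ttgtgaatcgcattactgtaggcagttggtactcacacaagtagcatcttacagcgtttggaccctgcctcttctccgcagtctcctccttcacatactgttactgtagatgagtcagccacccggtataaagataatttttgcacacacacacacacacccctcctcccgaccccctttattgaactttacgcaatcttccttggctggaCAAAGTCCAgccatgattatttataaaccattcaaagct
Slc7a9, chr7:35448955-35448983, + strand: ggtgtctatcTGGGCTTTGttgcctagaa
Slc7a8, chr14:54781887-54782136, - strand: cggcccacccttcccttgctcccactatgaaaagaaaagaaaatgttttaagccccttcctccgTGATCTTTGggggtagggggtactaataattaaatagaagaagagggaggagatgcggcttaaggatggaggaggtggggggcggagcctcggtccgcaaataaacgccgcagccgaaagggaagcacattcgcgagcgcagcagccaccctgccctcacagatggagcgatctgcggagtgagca
Enpep, chr3:129332750-129332999, - strand: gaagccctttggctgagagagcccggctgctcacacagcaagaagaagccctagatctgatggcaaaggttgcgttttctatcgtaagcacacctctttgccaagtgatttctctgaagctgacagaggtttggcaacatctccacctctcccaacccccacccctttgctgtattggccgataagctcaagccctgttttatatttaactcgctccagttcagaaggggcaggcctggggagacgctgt
The pattern stood in windows of 3 of the 9 genes (Slc3a1, Slc7a9 and Slc7a8). It stood in 5.49% of all 32851 windows of 250 bases before a start in the RefSeq table. Genes and windows are unlike measures, here and for the patterns below, since Mme and Slc7a9 had more than 1 window. The window of Slc6a19 lies within the span of that gene, not at its outer end. The same holds for the windows of Slc7a9, with the match shown, and for the later windows of Mme. The window of Dpp4 lies partly within the span of its gene. The Slc3a1 match, 39 bases before the start, spells CAAAGTCCA, which 0.384% of the windows hold. A match is a description of the letters and not of binding. The CDX pattern TTTATNG stood in windows of 2 genes, Dpp4 and Slc3a1, and in 9.81% of all windows, and an HNF1 pattern of 10 letters in 0 of the 9 genes and 0.371% of all windows. Both strands were searched for each pattern, and CAAAGTCCA is itself a case of CAAAGNNCA.

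Values are log2 intensities as the authors deposited them, and array medians lay between 4.96 and 5.12. Levels of different genes are not comparable on this scale, so each gene is compared with itself. The epithelial markers Epcam, Cdh1, Krt8, Krt18, Krt19 and Krt20 averaged between 11.36 and 11.99 on the arrays and 12 genes of brush border structure between 10.5 and 11.3. Lymphocyte markers averaged between 6.50 and 8.98, above the array medians. Csnk1a1, the targeted gene, lay between 10.4 and 10.8 on all 12 arrays. The labels do not say which exons were deleted, so this value checks no genotype. Xist, transcribed from the silenced X in females, had values of 3.15 to 3.94 wherever the replicate number was 1, and of 8.91 to 10.1 wherever it was 2, a split noticed after the values were seen. The spread between replicates was pooled over the 6 groups in 1 limma fit, so p-values rest on that pooled spread.

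The 9 genes shared 1 order of genotypes at its ends. The mean of all 9 was lowest in CKIα KO/p53 KO and highest in CKIα Het/p53 KO, an arrangement found for 10.1% of all genes tested. In the order of each gene, neighbouring groups mostly overlapped: of 45 pairs of neighbours, 10 did not overlap. The share over all genes was not worked out, so this count has no background beside it. The same limit holds for the gaps named next, which are not shown to be particular to the 9 genes. For Enpep the CKIα KO/p53 KO arrays lay below those of the next group, CKIα KO/p21 KO, and the same held for Slc7a9, while for Slc6a19 the next group was CKIα KO. For Slc15a1, Slc7a8 and Anpep, by contrast, the gap without overlap lay between CKIα KO and the next group up, CKIα Het/p21 KO. For Enpep, Dpp4, Mme and Slc3a1 a gap lay just below CKIα Het/p53 KO, the highest group. All 6 arrays of the 3 CKIα KO genotypes were, for Slc7a8, below the lowest array of the 3 CKIα Het genotypes, as were 5 of 6 for Enpep and Slc15a1, 4 of 6 for Mme and Slc7a9, 3 of 6 for Dpp4 and Slc6a19, and 2 of 6 for Anpep and Slc3a1. Over all genes tested 1.96% had all 6 below in this way, 6.52% at least 5, 13.9% at least 4, 24.6% at least 3 and 37.5% at least 2, against 1, 3, 5, 7 and 9 of the 9 genes.

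**Figure D1:**
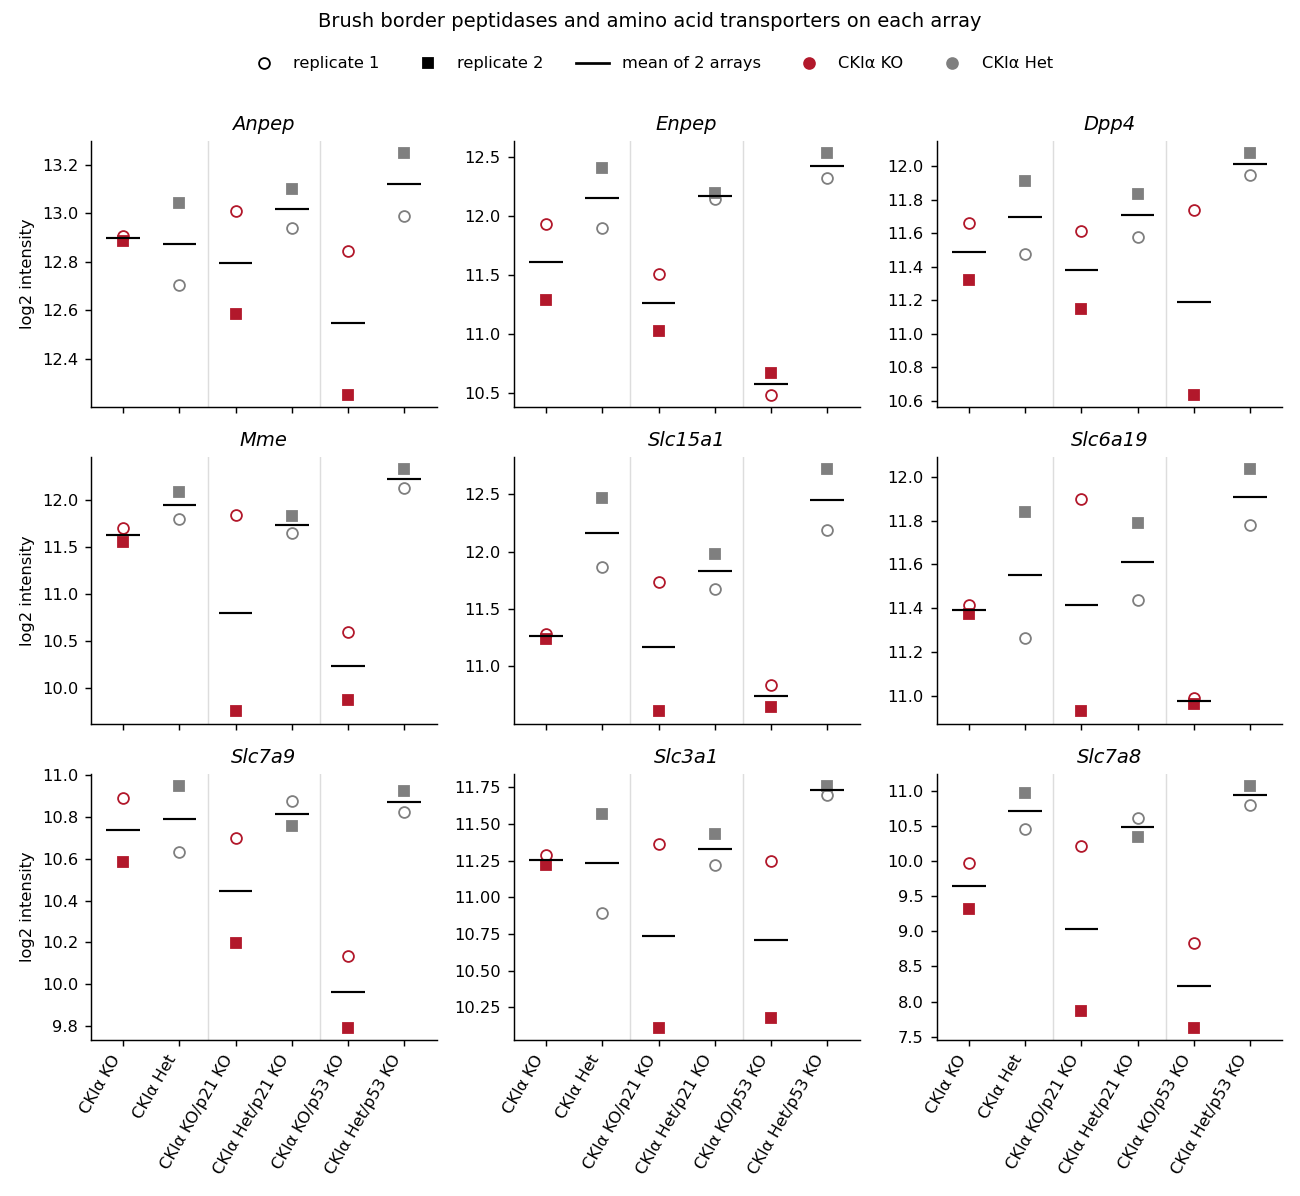
Log2 intensity of the 9 genes on each of 12 arrays, with 1 panel per gene and its own vertical axis; open circles are replicate 1, filled squares replicate 2, and the black line is the mean of the 2 arrays of a genotype. In every panel the CKIα KO/p53 KO mean is the lowest and the CKIα Het/p53 KO mean the highest, and the 2 CKIα KO/p21 KO arrays stand far apart in most panels.

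The comparison of CKIα KO/p53 KO with CKIα Het/p53 KO asked what the loss of CKIα changes when p53 is absent. In it 5 of the 9 genes fell, against 6.82% of all genes tested that were called lower: the peptidases Enpep and Mme, the peptide carrier Slc15a1, the exchanger subunit Slc7a9 and the basolateral exchanger Slc7a8. The differences ran from -0.57 (Anpep) to -2.71 (Slc7a8), with a median of -1.02 on the log2 scale against -0.06 over all genes tested. All 9 had an unadjusted p under 0.05, as did 34.5% of all genes. All 9 also had groups that did not overlap, with 35.7% of all genes lower in this way. In such bulk samples fewer mature enterocytes and less RNA per enterocyte cannot be told apart.

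Among the peptidases, Enpep, which removes acidic residues from the amino end of peptides and converts angiotensin II, had the lowest adjusted p. It stood at 10.48 and 10.67 in CKIα KO/p53 KO, against 12.32 and 12.53 in CKIα Het/p53 KO. The arrays of a genotype were close and the genotypes far apart, a 3.60-fold fall (-1.85 ± 0.25, log2 difference and SE, n = 2 per group, limma adjusted p = 0.00689). Mme, the neutral endopeptidase neprilysin, had 10.60 and 9.87 in CKIα KO/p53 KO and 12.13 and 12.33 in CKIα Het/p53 KO. It fell 3.99-fold (-1.995 ± 0.52, limma adjusted p = 0.0292), with a wider spread in the double knockout.

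The remaining peptidases had smaller differences. Dpp4, which clips dipeptides from peptides with proline or alanine in the next position and inactivates incretin hormones, had 11.74 and 10.64 in CKIα KO/p53 KO and 11.95 and 12.08 in CKIα Het/p53 KO. Its first double knockout array stood just under the heterozygotes and its second far under them (-0.83 ± 0.32, limma adjusted p = 0.103). Anpep, the abundant aminopeptidase N, had 12.84 and 12.25 in CKIα KO/p53 KO and 12.99 and 13.25 in CKIα Het/p53 KO (-0.57 ± 0.22, limma adjusted p = 0.102). Neither passed, although after a further quantile normalization Anpep did (-0.81, adjusted p = 0.0459).

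Slc15a1, the proton-coupled carrier of di- and tripeptides known as PEPT1, had 10.84 and 10.65 in CKIα KO/p53 KO, against 12.19 and 12.72 in CKIα Het/p53 KO. Both double knockout arrays lay more than a log2 of 1 below both controls, and the gene fell 3.27-fold (-1.71 ± 0.34, limma adjusted p = 0.0129). Slc6a19, the sodium-coupled carrier of neutral amino acids B0AT1, had 10.99 and 10.96 in CKIα KO/p53 KO and 11.78 and 12.03 in CKIα Het/p53 KO. Its double knockout arrays were nearly equal, yet the pooled fit left it just short of the threshold (-0.93 ± 0.29, limma adjusted p = 0.0551). With the spread taken from these 4 arrays alone it passed (adjusted p = 0.0157), as it did with array weights (adjusted p = 0.0418).

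Slc7a9 and Slc3a1 encode the light chain b0,+AT and the heavy chain rBAT of 1 apical exchanger, which takes up cystine and basic amino acids and is defective in cystinuria. Slc7a9 had 10.14 and 9.79 in CKIα KO/p53 KO and 10.82 and 10.92 in CKIα Het/p53 KO, a 1.88-fold fall (-0.91 ± 0.21, limma adjusted p = 0.0186). Slc3a1 had 11.25 and 10.18 in CKIα KO/p53 KO and 11.70 and 11.76 in CKIα Het/p53 KO (-1.02 ± 0.42, limma adjusted p = 0.119). The differences of the 2 chains were alike in size, but the Slc3a1 arrays of the double knockout were more than a log2 of 1 apart and the gene did not pass. Slc7a8, the light chain LAT2 of a basolateral exchanger of neutral amino acids, had 8.83 and 7.63 in CKIα KO/p53 KO and 10.80 and 11.07 in CKIα Het/p53 KO. At 6.54-fold it had the largest fall of the 9 (-2.71 ± 0.64, limma adjusted p = 0.0212).

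These calls rest on few arrays. Leaving out CKIα Het/p53 KO replicate 1 left 0 of the 9 called, leaving out its replicate 2 or CKIα KO/p53 KO replicate 2 left 1, Enpep. The loss was not particular to the 9, since the share of all genes called lower fell with it to 0.0598%, 1.51% and 0.538% in these fits. Without CKIα KO/p53 KO replicate 1 the number was 5 with Dpp4 in place of Mme (2.7% of all genes lower), without either CKIα KO/p21 KO array it was 7, with Slc6a19 and Slc3a1 added (8.61%), and none of the 12 omissions turned a difference positive. Markers of other cells gave these values beside the 9 genes. The mean over 9 lymphocyte markers was 8.26 and 6.97 in CKIα KO/p53 KO and 7.13 and 8.35 in CKIα Het/p53 KO, which overlap, with 0 markers called. Lymphocytes and myeloid cells are also known to carry Dpp4, Anpep and Mme on their surface. Of 7 myeloid markers Cd68 and Cd14 rose (0.89 ± 0.17 and 0.81 ± 0.20, limma adjusted p = 0.0117 and 0.0245), with the mean of the list at 5.40 and 5.33 in CKIα KO/p53 KO and at 5.08 and 5.21 in CKIα Het/p53 KO. The part of these cells in the values was not tested.

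**Figure D2:**
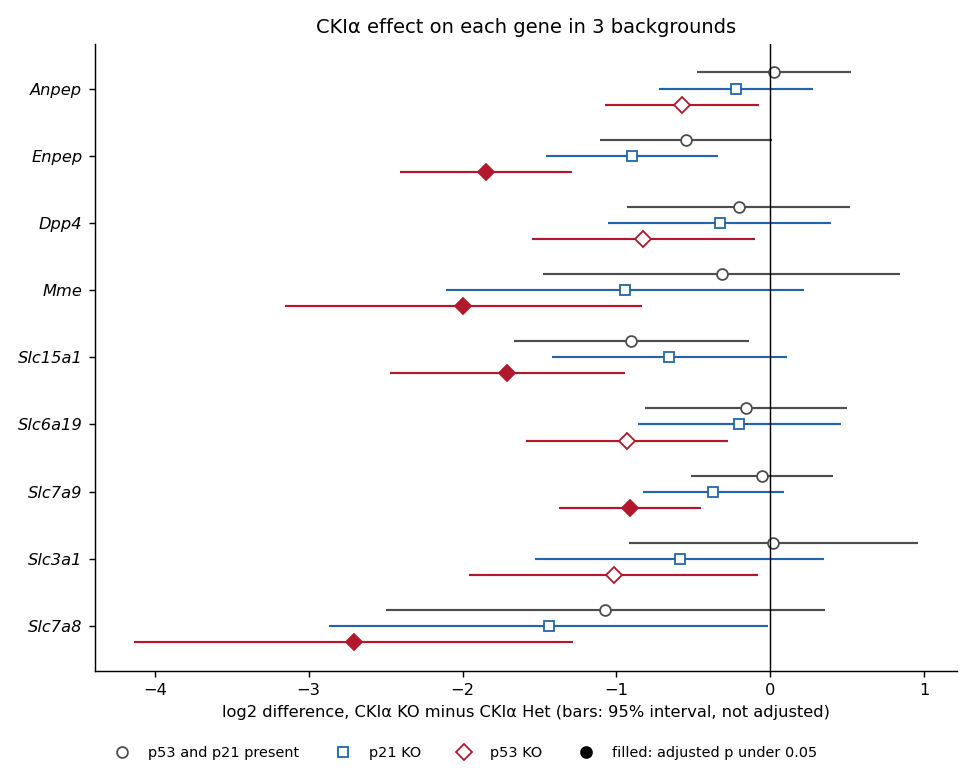
Log2 difference of CKIα KO minus CKIα Het for each gene with p53 and p21 present (circles), with p21 knocked out (squares) and with p53 knocked out (diamonds); bars are 95% intervals of the limma fit and filled symbols passed at an adjusted p under 0.05. The 5 filled symbols all belong to the p53 knockout, where all 9 differences are below 0, while with p53 and p21 present 7 of 9 are below 0 and none passed.

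With p53 and p21 present, CKIα KO was compared with CKIα Het, and 0 of the 9 genes passed limma, as did 0% of all genes in the lower direction. The median difference was -0.20 against 0.02 over all genes, and 1 gene of the 9, Slc15a1, had an unadjusted p under 0.05, against 9.09% of all genes. Slc15a1 stood at 11.28 and 11.24 in CKIα KO and at 11.86 and 12.47 in CKIα Het (-0.90 ± 0.34, limma adjusted p = 0.450). Slc7a8 stood at 9.97 and 9.32 in CKIα KO and at 10.45 and 10.97 in CKIα Het (-1.07 ± 0.64, limma adjusted p = 0.679). Both had lower values on both knockout arrays, as did Mme, and these were the 3 of 9 whose groups did not overlap, with 16.8% of all genes lower in this way. Anpep, Slc7a9 and Slc3a1 differed by 0.02 ± 0.22, -0.05 ± 0.21 and 0.02 ± 0.42, with 95% intervals from -0.48 to 0.52, from -0.51 to 0.41 and from -0.92 to 0.96. Enpep was at -0.54 ± 0.25, Mme at -0.32 ± 0.52, Dpp4 at -0.20 ± 0.32 and Slc6a19 at -0.16 ± 0.29 (limma adjusted p between 0.563 and 0.935).

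With p21 knocked out, all 9 differences between CKIα KO/p21 KO and CKIα Het/p21 KO were below 0, but 0 genes passed, where 0.514% of all genes were called lower. The median was -0.59 against -0.01 over all genes. Enpep, at 11.51 and 11.02 in CKIα KO/p21 KO and 12.14 and 12.19 in CKIα Het/p21 KO, came closest (-0.90 ± 0.25, limma adjusted p = 0.0799). It and Slc7a8 were the 2 of 9 with an unadjusted p under 0.05, against 23.2% of all genes. Groups did not overlap for 3 of the 9, namely Enpep, Slc7a9 and Slc7a8, and 24.3% of all genes were lower in this way.

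Taken over the 9 genes together, the CKIα KO/p21 KO arrays disagreed more than those of any other genotype. Their pooled SD over the 9 genes was 0.897, against 0.162 to 0.521 in the other groups. Over all genes tested it was 0.341 against 0.204 to 0.289. For Anpep, Enpep and Dpp4 another genotype had the wider gap between its arrays. Slc7a8 had 10.21 on replicate 1 and 7.87 on replicate 2 of CKIα KO/p21 KO, against 10.61 and 10.35 in CKIα Het/p21 KO. Mme had 11.84 and 9.75 in CKIα KO/p21 KO, against 11.65 and 11.83 in CKIα Het/p21 KO. For Slc7a8 and Mme replicate 1 thus stood near the heterozygotes and replicate 2 at levels like those of CKIα KO/p53 KO. For Enpep, replicate 1 (11.51) lay below both heterozygotes and replicate 2 (11.02) above both CKIα KO/p53 KO arrays (10.48 and 10.67). Without replicate 1, 4 of the 9 genes were called lower (Enpep, Mme, Slc15a1 and Slc7a8), as were 6.47% of all genes, and without replicate 2, the differences of Mme, Slc6a19 and Slc3a1 turned to 0.10, 0.28 and 0.04. The lymphocyte marker mean was 7.67 on replicate 1 and 6.50 on replicate 2, the enteroendocrine marker mean 6.42 and 5.35 and the goblet marker mean 10.3 and 9.49. Markers of fibroblasts and smooth muscle averaged 6.08 and 4.94 and those of the proximal small intestine 9.89 and 8.71, while Paneth markers averaged 8.65 and 9.79, the higher on replicate 2. The other 7 lists of cell types differed by less than 0.5 between the arrays. Their part in the gap between the arrays was not tested.

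Whether the CKIα effect itself depended on p53 was tested as the difference between the effect with p53 knocked out and the effect with both genes present. All 9 estimates were negative, from -0.59 to -1.68, but 0 passed, and only 0.00598% of all genes were called in this direction. Enpep (-1.30 ± 0.35, limma adjusted p = 0.237), Mme (-1.68 ± 0.74, adjusted p = 0.330) and Slc7a9 (-0.86 ± 0.29, adjusted p = 0.262) had an unadjusted p under 0.05, as did 14.9% of all genes. Without either CKIα KO/p21 KO array, which enter no mean of this difference, Mme passed (-1.68, limma adjusted p = 0.0445), as did 0.604% of all genes in the lower direction. For the other 8 genes, and for Mme with all arrays, the larger fall without p53 was not shown to differ from that with p53. For p21 the same difference ran from -0.63 to 0.25 with 0 genes called (0% of all genes lower) and 0 with an unadjusted p under 0.05 (8.13% of all genes).

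Between the knockouts themselves, CKIα KO/p53 KO was lower than CKIα KO in the means of all 9 genes, by -0.30 (Dpp4) to -1.41 (Slc7a8), and 7 of the 9 had groups that did not overlap (25.8% of all genes lower). None passed limma, against 0.227% of all genes called lower. Enpep (-1.03 ± 0.25, limma adjusted p = 0.0657) and Slc7a9 (-0.77 ± 0.21, adjusted p = 0.0793) came closest, and Mme also had an unadjusted p under 0.05 (22.3% of all genes). Without either of the CKIα KO/p21 KO arrays, which enter no mean of this comparison, 4 passed (Enpep, Mme, Slc7a9 and Slc7a8), and 3.2% of all genes were called lower. Against CKIα KO/p21 KO, CKIα KO/p53 KO differed by -0.03 to -0.81 with 0 of 9 called (0.215% of all genes lower). Of the 9, 2 had an unadjusted p under 0.05 (9.01% of all genes), and Enpep and Slc7a9 had groups that did not overlap (16.5% of all genes lower). CKIα KO/p21 KO differed from CKIα KO by -0.83 to 0.02, with 0 called (0.012% of all genes lower) and 0 at an unadjusted p under 0.05 (12% of all genes). With CKIα heterozygous, all 9 genes were higher in CKIα Het/p53 KO than in CKIα Het, by 0.08 to 0.50, and 0 passed limma (0% of all genes) or had an unadjusted p under 0.05 (5.63% of all genes). Dpp4, Mme and Slc3a1 were the 3 whose groups did not overlap (24.8% of all genes higher). CKIα Het/p53 KO is also the control of the comparison without p53 above, so its level enters both. CKIα Het/p21 KO differed from CKIα Het by -0.34 to 0.15, with 0 of 9 called (0.00598% of all genes) and 0 at an unadjusted p under 0.05 (5.01%).

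Other genes of protein assimilation were taken from lists of enzymes and carriers and followed in the comparison of CKIα KO/p53 KO with CKIα Het/p53 KO, in which 17.8% of all genes were called, 6.82% lower and 11% higher. Of 8 further brush border peptidases tested 5 fell and 0 rose (median -1.71). Mep1a, a subunit of the metalloprotease meprin, fell 11.8-fold (-3.56 ± 0.63), and Ace, the angiotensin-converting enzyme, 10.4-fold (-3.38 ± 0.57). Naaladl1 and Xpnpep2, an aminopeptidase that cuts before proline, had log2 differences of -2.57 and -1.94 (limma adjusted p = 0.00961 and 0.00955).

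Of 8 cytosolic peptidases, which split absorbed di- and tripeptides, 4 fell and 0 rose (median -0.55), among them the dipeptidase Cndp2 (-1.80 ± 0.29), the prolidase Pepd (-2.10 ± 0.37), Lap3 (-1.24 ± 0.28) and Xpnpep1 (-0.80 ± 0.15). Of 5 further apical carriers 3 fell and 0 rose (median -1.62): the imino acid carrier Slc6a20a (-3.38 ± 0.65), the proton-coupled carrier Slc36a1 (-2.90 ± 0.46) and the glutamate carrier Slc1a1 (-1.62 ± 0.43). Of 5 basolateral carriers 3 fell and 1 rose (median -1.14). Slc43a2 (-2.21 ± 0.36), the light chain Slc7a7 (-1.14 ± 0.26) and Slc3a2, the heavy chain with which Slc7a8 pairs (-0.80 ± 0.25, limma adjusted p = 0.0496), were lower, and the light chain Slc7a6 was higher (1.39 ± 0.17).

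Carriers known for supplying dividing cells moved the other way. Of 8 such genes 7 rose and 0 fell, with a median of 1.83. Slc38a1, a sodium-coupled glutamine carrier, had 10.43 and 9.72 in CKIα KO/p53 KO, against 7.13 and 7.39 in CKIα Het/p53 KO, a 7.06-fold rise (2.82 ± 0.39, limma adjusted p = 0.00695). Slc7a11, the light chain of the cystine and glutamate exchanger, had 6.14 and 6.47 in CKIα KO/p53 KO and 3.86 and 3.99 in CKIα Het/p53 KO. It rose 5.20-fold (2.38 ± 0.23, limma adjusted p = 0.00341), while Slc7a9 of the apical cystine exchanger fell. Slc1a5, a neutral amino acid carrier, rose 4.04-fold and Slc7a5, the light chain LAT1 of the same family as Slc7a8, 3.45-fold (limma adjusted p = 0.00756 and 0.00783). In CKIα KO/p53 KO against CKIα KO, Slc7a11 (2.14 ± 0.23, limma adjusted p = 0.00961) and Slc7a5 (1.69 ± 0.29, adjusted p = 0.0458) also rose, 2 of the 8. Of the 5 basolateral carriers 1 was called higher there and 0 lower, and the peptidases and apical carriers of these lists had 0 called. Of all 16721 genes tested, 116 were called in that comparison, 38 of them lower and the others higher. In the CKIα comparisons with p53 and p21 present and with p21 knocked out, 0 genes of these 5 lists were called. Few genes were called there at all, 4 of the 16721 with p53 and p21 present and 330 with p21 knocked out.

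**Figure D3:**
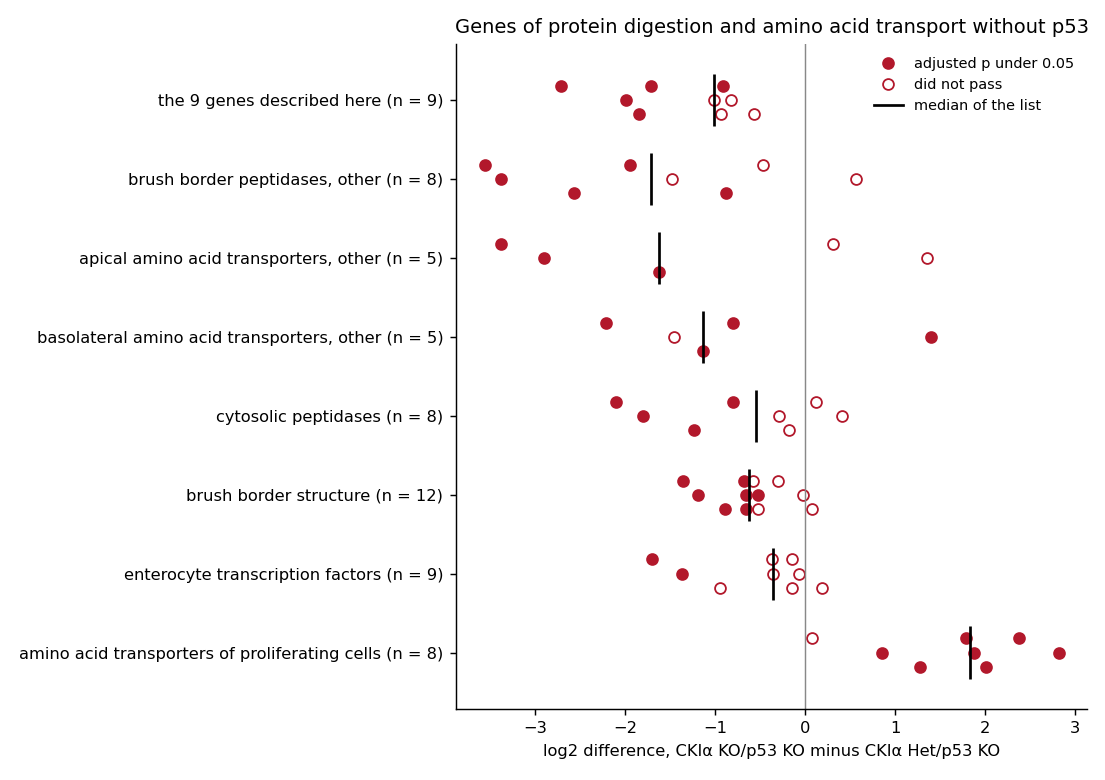
Log2 difference of CKIα KO/p53 KO minus CKIα Het/p53 KO for the 9 genes and for 7 lists of related genes, 1 point per gene, filled where limma's adjusted p was under 0.05, with a black line at the median. Of the 16 other peptidases 13 lie left of 0 and 3 right of it, and of the 8 carriers of dividing cells all lie right of 0 and 7 are filled.

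Of 12 genes of brush border structure 7 fell and 0 rose (median -0.62), among them Anks4b and Myo7b, which anchor the links between microvilli (-1.36 ± 0.25 and -1.19 ± 0.25), the actin bundler Espn (-0.89 ± 0.22) and Pls1 (-0.66 ± 0.16). Of 9 enterocyte transcription factors 2 fell and 0 rose (median -0.36), namely Hnf4g (-1.71 ± 0.29, limma adjusted p = 0.00889) and Maf (-1.37 ± 0.23, adjusted p = 0.00803). Klf4 and Gata4 did not pass (adjusted p = 0.0829 and 0.0993). Hnf4g had 9.98 and 10.26 in CKIα KO/p53 KO and 11.76 and 11.90 in CKIα Het/p53 KO.

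Lists of cell types gave the following in the same comparison. Of 6 epithelial markers Krt18 rose and 0 fell (median 0.16). Of 5 goblet markers 4 fell (median -1.28) and of 6 enteroendocrine markers 5 fell (median -1.45). Of 4 Paneth markers Mmp7 rose (median 0.27), and of 4 tuft markers Avil rose (median -0.14). Of 4 crypt base markers 0 were called (median 0.41). Of 4 markers of the proximal small intestine lactase (Lct) fell and Onecut2 rose (median -0.39), and of 4 ileal markers Slc51a fell (median -0.63). Of 5 endothelial markers Eng fell (median -0.06). The lists of lymphocytes (9 genes, median -0.21), fibroblasts and smooth muscle (7 genes, -0.16) and red blood cells (2 genes, -0.06) had 0 called, and that of myeloid cells (7 genes) a median of -0.00. Endothelial markers averaged between 4.18 and 4.62 on the 12 arrays and red blood cell markers between 4.32 and 4.64, all below the lowest array median of 4.96.

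The 9 genes varied together across arrays, also among arrays of 1 CKIα genotype. Over the 6 CKIα KO arrays, Pearson's r between pairs of the 9 ran from 0.39 to 0.99 with a median of 0.81 over 36 pairs, and over the 6 CKIα Het arrays from 0.51 to 0.98 with a median of 0.84. These values describe 6 arrays that share genotypes and replicate numbers, and carry no test. No r of other pairs of genes stands beside them, so they are not shown to be particular to the 9. By the same measure over all 12 arrays, which part into genotypes, genes outside the 9 were ranked by likeness to each member. Predicted genes, Riken clones and symbols made of an accession were left out of this ranking. For the peptidases the most alike were Slc5a4a and Epb41l3 for Enpep (0.98 each) and Acad11 and Sfxn1 for Mme (0.98 each). For Anpep and Dpp4 they were Tesk2 and Invs (0.96 and 0.93) and Spry3 and Gpat3 (0.92 and 0.91). For the carriers they were Slc16a10, an aromatic amino acid carrier of the basolateral list, and Tmem86a for Slc7a8 (0.98 each), Aspa and Asah2 for Slc7a9 (0.97 each), Spry3 and Tmbim6 for Slc3a1 (0.98 and 0.94), H2-Q2 and Crbn for Slc15a1 (0.96 each), and Lap3, a leucine aminopeptidase of the cytosolic list, and Tor1a for Slc6a19 (0.96 and 0.95).

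The replicate number moved with the 9 genes in opposite ways in the CKIα genotypes. In the 3 CKIα KO groups replicate 2 was the lower array in 26 of 27 gene and group pairs, and in the 3 CKIα Het groups it was the higher in 25 of 27. Over all genes tested, replicate 2 was higher for between 43.0% and 56.4% of genes in every group. Within replicate 1 the difference of CKIα KO/p53 KO from CKIα Het/p53 KO was -1.97 for Slc7a8, -1.53 for Mme and -0.45 for Slc3a1, and within replicate 2 it was -3.45, -2.46 and -1.58. Enpep differed by -1.83 and -1.86. Xist, given above, split all 12 arrays by the same replicate number. The difference between replicate numbers was noticed after the values were seen and was not tested.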

How the data were processed

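Biotin-labelled cRNA from mouse enterocytes was hybridized to Affymetrix arrays, per the labels' protocols. RMA Sketch, run in Expression Console 1.1 (Affymetrix), gave the authors' intensities, which they then normalized on medians, per the labels' protocols. The deposited values were read as log2, since the labels do not state the base and the values run from 1.90 to 14.5. The number of arrays, 2 per group, limits the precision. Where mice were separate is stated only as "biological replicates", and p-values measure the spread between these arrays. Of 35556 probe sets, 21789 carried 1 gene symbol in the platform annotation, 1621 several and 12146 none. Each gene took its probe set with the highest mean, and 16721 of 19938 genes exceeded the array's 25th percentile on at least 2 of 12 arrays and were tested.

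The 12 arrays entered 1 model of group means (limma 3.58.1, R 4.3.3) with 6 residual degrees of freedom. P-values are two-sided, adjusted by Benjamini and Hochberg over all 16721 genes within each of 10 comparisons, and called under 0.05. The array titled as CKIα KO/p53 KO replicate 3 carries a genotype label of CKI knockout alone, and it entered no fit. The fit was tested on simulated data with known changes.

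Members, lists and comparisons were chosen with earlier results of these data known. The rule named all 9 members, up to 4 genes per list with the smallest p, and the 2 genes most correlated with each member. These 2 were taken from outside the 9, without predicted-gene, Riken and accession symbols. The text also names each marker called in a list of cell types, and these were chosen after their values were seen. Of 131 list entries 122 were tested. Alternatives were no filter, a further quantile normalization, an intensity trend, a replicate block, array weights, the spread of the compared groups alone, the mean of all probe sets and each array left out. Same-numbered arrays deviated together unevenly (correlation of deviations from -0.16 to 0.25 over 15 pairs of groups), so the number was not taken to pair them. Xist did follow the number on all 12 arrays. The fit with a replicate block takes up only a shift shared by all groups.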

Additional observations from a re-analysis of the deposited data

How the results depend on the processing

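Under the 7 alternatives other than leaving out 1 array, 5 to 6 of the 9 genes were called lower without p53, and 0 in each of the other 9 comparisons. Over all genes, 5.74% to 8.65% were called lower without p53 under these alternatives, and 0% to 0.718% in the other comparisons. The fit with a replicate block called 5, and it changed no call among the 9. A further quantile normalization turned Anpep with p53 and p21 present to -0.11. Leaving out 1 of the 12 arrays at a time assumes that a lone array varies like the other groups. The calls among the 9 then changed without p53, with p21 knocked out and for the difference of effects by p53. They also changed for p53 or p21 knocked out in CKIα KO and between the double knockouts, and not in the other comparisons. In each comparison where they changed, the number called over all genes tested changed too, so this was not particular to the 9. Over these omissions, with p53 and p21 present, Anpep ran from -0.15 to 0.19, Dpp4 from -0.42 to 0.014, Slc6a19 from -0.44 to 0.13, Slc7a9 from -0.21 to 0.11 and Slc3a1 from -0.32 to 0.36. With p21 knocked out, Mme ran from -1.99 to 0.10, Slc6a19 from -0.68 to 0.28 and Slc3a1 from -1.22 to 0.040. Dpp4 in CKIα KO/p53 KO against CKIα KO ran from -0.86 to 0.25. The cause was not tested. Alternatives for the lists were chosen after seeing the data. Over the omissions, calls without p53 ran from 0 to 6 for other brush border peptidases, 0 to 4 for cytosolic peptidases, 0 to 3 for apical carriers, 0 to 4 lower and 0 to 1 higher for basolateral carriers, 1 to 7 for carriers of dividing cells, 0 to 7 for brush border structure and 0 to 3 for transcription factors. Over all genes, the number called with p21 knocked out was 330, against 163 with no filter, 119 with array weights and 0 with only the arrays compared. For p53 knocked out in CKIα KO it was 116, against 338 with the replicate block, 25 with array weights and 27 with only the arrays compared. The difference of effects by p53 had 3 genes called, against 109 with only the arrays compared. With 2 arrays per group, differences that missed the threshold are not shown to be absent.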

Other observations

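One further array entered no comparison, since its title names a CKIα KO/p53 KO sample and its genotype label CKI knockout alone. On it the peptidases stood at 12.59 (Anpep), 10.98 (Enpep), 11.03 (Dpp4) and 10.90 (Mme). The carriers stood at 10.41 (Slc15a1), 10.98 (Slc6a19), 10.29 (Slc7a9), 10.37 (Slc3a1) and 8.99 (Slc7a8). All 9 values were below the lowest of the 6 CKIα Het arrays of the same gene, as were those of 20.8% of all genes tested.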
